A study of Mus musculus with 20 samples.

Results

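The genes described here encode the megalin and cubilin uptake machinery and the folate receptor: Lrp2 (megalin), Cubn (cubilin), Amn (amnionless), Dab2, Lrpap1 (receptor-associated protein) and Folr1 (folate receptor alpha). They were taken by gene symbol from the deposited expression table and are 6 of the 20794 genes measured, with 15 of the 38367 probe sets that carry 1 gene symbol. Every probe set was examined, and the one whose mean across the 20 arrays was highest was taken as the main probe set of its gene.

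Conceptuses of CD-1 mice were taken from untreated dams on gestational day 8 and kept in whole embryo culture for 24 h until day 9, and the embryo and its visceral yolk sac were then dissected. Controls received 0.01% DMSO, the solvent. Exposed conceptuses received 100 µg/ml mono-2-ethylhexyl phthalate (MEHP), a breakdown product of a phthalate plasticiser. Both exposures were further divided into conceptuses whose neural tube had closed normally and those with a neural tube defect (NTD), which gives 8 groups over the 2 tissues. Every group has 3 arrays except the control with NTD, which has 1 in each tissue. A yolk sac is grouped by the NTD status of its conceptus. The sources used here do not say whether an array holds 1 conceptus or several, and p-values cover only the spread among these samples. The number of arrays limits the precision. Control arrays all carry earlier array numbers than MEHP arrays, and array order and exposure cannot be told apart.

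Megalin is a giant receptor of the low-density lipoprotein (LDL) receptor family that carries lipoproteins, vitamin carriers and signalling proteins from the cell surface into the cell. Cubilin has no membrane anchor and reaches the surface through amnionless, with which it forms the receptor for intrinsic factor and cobalamin, while Dab2 links receptor tails to clathrin and Lrpap1 is the chaperone that keeps ligands off LDL receptor family members on their way to the surface. In the visceral yolk sac endoderm these proteins take up maternal proteins for the embryo before the placenta works, and megalin also lies on the apical face of the neuroepithelium, where mice that lack it have forebrain defects. Folate receptor alpha brings folate into the cell, and mouse embryos without it fail to close the neural tube.

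On mouse build GRCm38, Lrp2 lies on chromosome 2 from 69424335 to 69586029 and Cubn on the same chromosome from 13276338 to 13491876. Amn lies on chromosome 12 from 111271096 to 111276426, Dab2 on chromosome 15 from 6299788 to 6440715, Folr1 on chromosome 7 from 101858331 to 101870788 and Lrpap1 on chromosome 5 from 35091490 to 35105699. RefSeq promoter sequence of the same build matched 5 of the 6 genes. The 250 bases before the start are shown for the receptor that differed with MEHP in the embryo (Lrp2), for the 2 partners of the cobalamin receptor (Cubn and Amn), and for both starts of Dab2, whose probe sets gave different results. Capitals mark the GC box GGGCGG (or its reverse complement) and the HNF1 half-site GTTAAT.
Lrp2, chr2:69586030-69586279, minus strand: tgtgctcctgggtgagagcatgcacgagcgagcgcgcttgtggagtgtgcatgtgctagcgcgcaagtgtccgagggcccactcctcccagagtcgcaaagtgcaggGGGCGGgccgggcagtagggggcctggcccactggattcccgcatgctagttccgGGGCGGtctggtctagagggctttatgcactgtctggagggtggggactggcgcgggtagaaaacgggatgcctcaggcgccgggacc
Cubn, chr2:13491877-13492126, minus strand: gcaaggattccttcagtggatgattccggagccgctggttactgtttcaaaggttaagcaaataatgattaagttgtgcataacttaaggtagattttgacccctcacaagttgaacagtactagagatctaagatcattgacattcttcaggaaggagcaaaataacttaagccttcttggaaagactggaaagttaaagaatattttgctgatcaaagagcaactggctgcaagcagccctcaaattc
Amn, chr12:111270846-111271095, plus strand: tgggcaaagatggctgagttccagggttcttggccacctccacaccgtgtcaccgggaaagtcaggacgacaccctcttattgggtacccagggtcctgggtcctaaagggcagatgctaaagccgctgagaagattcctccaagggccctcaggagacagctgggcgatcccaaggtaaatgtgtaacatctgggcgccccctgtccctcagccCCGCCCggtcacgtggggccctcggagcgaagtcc
Dab2, upstream start, chr15:6299539-6299788, plus strand: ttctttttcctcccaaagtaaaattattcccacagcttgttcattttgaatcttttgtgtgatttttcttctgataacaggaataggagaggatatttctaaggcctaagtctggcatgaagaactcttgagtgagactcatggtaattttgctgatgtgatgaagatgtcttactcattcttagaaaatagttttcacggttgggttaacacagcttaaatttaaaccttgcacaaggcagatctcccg
Dab2, downstream start, chr15:6386498-6386747, plus strand: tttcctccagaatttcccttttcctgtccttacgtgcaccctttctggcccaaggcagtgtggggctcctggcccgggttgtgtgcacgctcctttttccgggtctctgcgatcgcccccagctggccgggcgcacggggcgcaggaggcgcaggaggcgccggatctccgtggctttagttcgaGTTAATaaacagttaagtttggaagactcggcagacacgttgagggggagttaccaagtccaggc
The Lrp2 promoter is 66.4% G and C and holds 2 GC boxes, 137 and 82 bases before the start. The Cubn promoter is 39.6% G and C and holds none, and the Amn promoter is 61.2% G and C and holds 1 on the reverse strand, 29 bases before the start. The downstream Dab2 promoter (60% G and C) has 1 HNF1 half-site 59 bases before the start, and the upstream one (36.8%) has neither motif. Lrpap1, whose sequence is not printed, is at 60.8% with 5 GC boxes. Over all 32851 RefSeq promoters of this length the median was 52.4%, 32.7% held a GC box and 6.43% the HNF1 half-site, counting both strands. The nuclear receptor half-site AGGTCA (in 14% of all promoters), the GATA site AGATAA (9.99%) and the TATA box TATAAA (12.4%) had 0 matches in the windows of the 5 genes. These motifs do not overlap one another in the printed sequences.

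The deposited values are log2 levels, so a difference of 1 is a doubling, and array medians lay between 4.81 and 4.90. Tissue markers parted embryos from yolk sacs: the mean level of 8 neural markers was 7.98 to 8.44 in embryos and 3.57 to 3.79 in yolk sacs, and that of 14 visceral endoderm markers 5.53 to 7.30 in embryos and 11.60 to 11.83 in yolk sacs. Of the embryo arrays, control array 2 (7.07) and MEHP array 3 without NTD (7.30) had the highest endoderm marker level. The 9 nonspecific control probe sets, which match no mouse transcript, lay at 3.91 to 4.05 in control embryos and at 3.65 to 3.80 in all 6 MEHP embryos, and at 3.87 to 4.08 in control yolk sacs and 3.70 to 3.83 in MEHP yolk sacs. Control and MEHP arrays did not overlap in this background level in either tissue. A fit with this level as a covariate therefore cannot tell background and exposure apart.

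All 6 genes were lower in embryo than in yolk sac, the tissue in which they are known to act in bulk nutrient uptake. In control arrays without NTD, Lrp2 differed by -3.33 ± 0.12 log2 units (SE, 3 arrays a group; limma adjusted p = 2.63e-13), a 10.1-fold difference. The difference was -3.98 ± 0.14 for Dab2, -2.95 ± 0.08 for Lrpap1 and -6.16 ± 0.16 for Folr1. The measured difference was -7.80 ± 0.58 for Cubn and -7.10 ± 0.31 for its partner Amn, both against control embryo values that reach down to about the level of the nonspecific probe sets, so these sizes are not exact. For Cubn it ranged from -7.23 to -8.615 when each array was left out in turn. The largest adjusted p of the 6 genes was 3.18e-09, for Cubn. Of all genes 51.3% passed the threshold of 0.05 in this comparison and 22.8% were lower in embryo. In a fit of all probe sets 14 of the 15 were lower in embryo, against 20.9% of all probe sets. The exception was the Lrp2 probe set 1445901_PM_at, which lay between 4.07 and 4.97 in both tissues (-0.13 ± 0.13, adjusted p = 0.425). In bulk tissue, fewer cells of a type and less RNA per cell cannot be told apart.

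**Figure D1:**
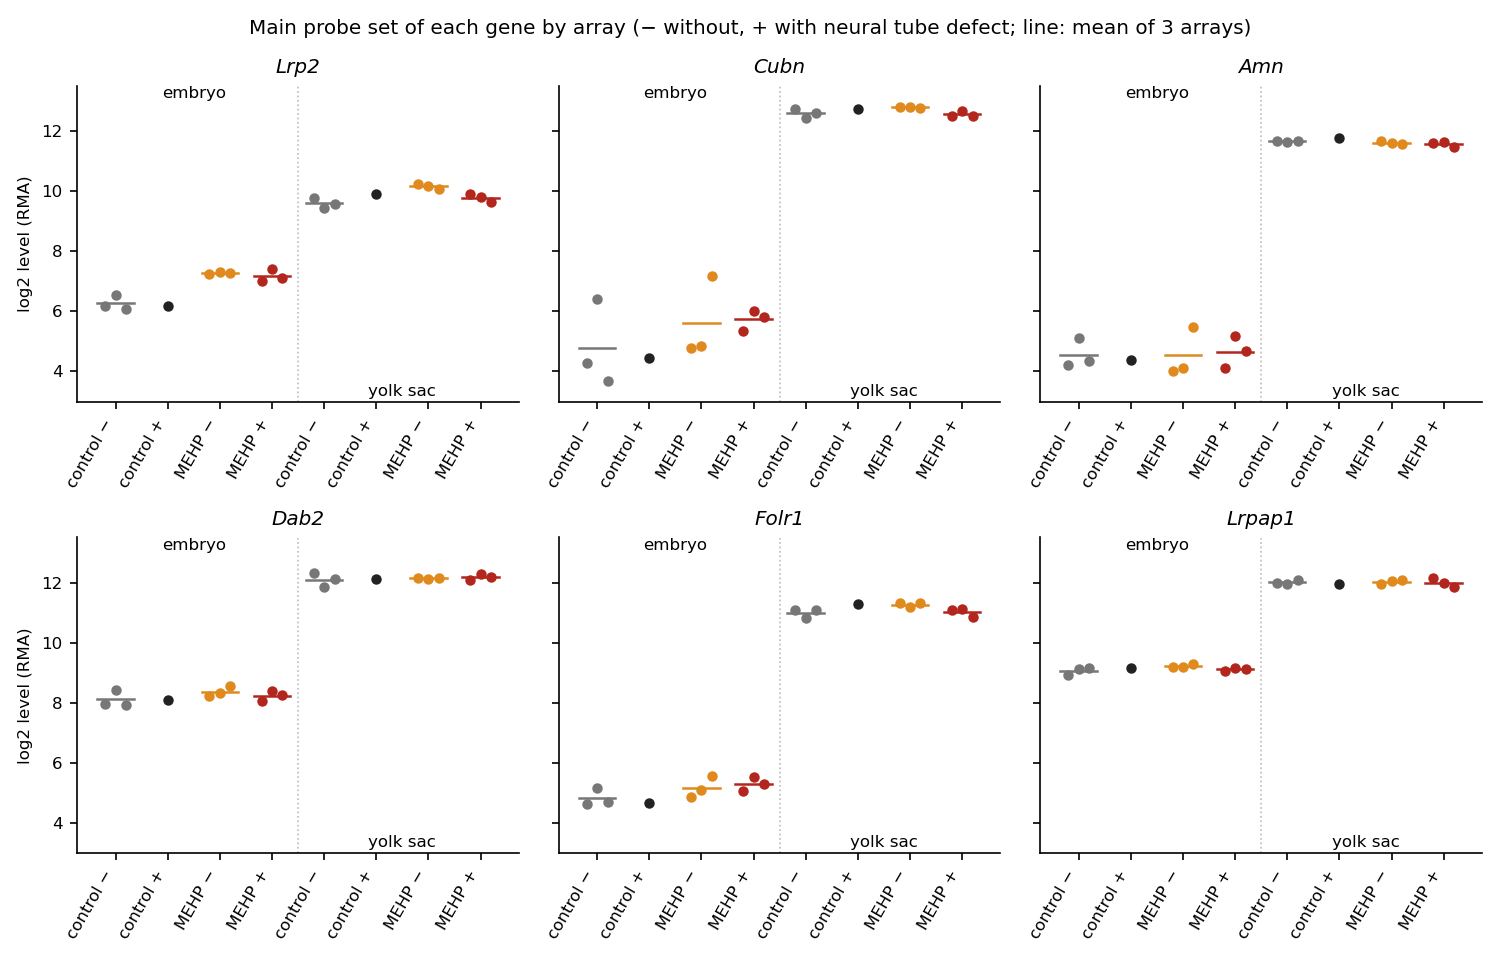
Log2 level (y axis) of the main probe set of each gene in every array, by tissue, exposure and NTD status (x axis); a point is 1 array and a line the mean of 3 arrays. All 6 genes are higher in yolk sac than in embryo, embryo Lrp2 with MEHP (7.01 to 7.40) lies above all 4 control embryos (6.08 to 6.55), and embryo Cubn spreads from 3.67 to 7.17.

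Lrp2 rose in MEHP embryos with and without NTD. Its level was 6.18, 6.55 and 6.08 in the control embryos without NTD and 6.17 in the control embryo with NTD. It was 7.25, 7.32 and 7.26 in MEHP embryos without NTD and 7.01, 7.40 and 7.12 in MEHP embryos with NTD. Every MEHP embryo thus lay above every control embryo, while the MEHP embryos with and without NTD overlapped.

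Against controls without NTD the difference was 1.01 ± 0.13 (SE, 3 arrays a group; 95% interval 0.72 to 1.29; limma adjusted p = 0.00518) without NTD, a 2.01-fold rise, and 0.91 ± 0.13 (interval 0.62 to 1.19; adjusted p = 0.00802) with NTD. Both comparisons share the control arrays. Lrp2 was 1 of 6 members called in each, where 9.72% of all genes passed in the first (3.82% higher) and 7.45% in the second (3.21% higher). The second Lrp2 probe set, 1452320_PM_at, lay at 5.53, 6.06 and 5.71 in controls and at 6.57, 6.56 and 6.54 with MEHP without NTD, with no overlap. With MEHP and NTD it lay at 5.9975, 6.77 and 6.53, of which the lowest falls within the controls. In the fit of all probe sets it rose by 0.79 ± 0.18 (adjusted p = 0.0264) without NTD, and stood at 0.66 ± 0.18 (adjusted p = 0.0509) with NTD. Without any 1 of control array 1 and the 3 MEHP arrays this probe set missed the threshold (highest adjusted p = 0.0869). The main probe set kept its call without each array in turn. The third Lrp2 probe set, 1445901_PM_at, low in both tissues, stood at -0.07 ± 0.10 (adjusted p = 0.671) without NTD. With NTD it stood at -0.24 ± 0.10 (adjusted p = 0.158). With NTD among MEHP embryos Lrp2 differed by -0.10 ± 0.13 (interval -0.38 to 0.18, adjusted p = 0.979), and 0 of 6 members and 0.024% of all genes passed.

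Other measures were set beside the Lrp2 difference in the embryo, with marker values of controls given for those without NTD. Some differed from controls in both MEHP groups, while neural and trophoblast marker sums overlapped controls in the group with NTD. With the nonspecific probe set level as a covariate, Lrp2 stood at 0.70 without NTD (adjusted p = 0.637) and 0.58 with NTD (adjusted p = 0.659), and 0 of all genes passed in either comparison. That level did not overlap between control and MEHP arrays, so this fit cannot tell background and exposure apart. The summed level of the 8 neural markers was 63.83 to 66.28 in controls, 67.18 to 67.55 in MEHP embryos without NTD and 65.29 to 67.02 with NTD, with Sox1 called without NTD and Otx2 with NTD. The summed level of the 4 parietal endoderm markers was 30.44 to 30.98 in controls, 31.91 to 32.26 in MEHP embryos without NTD and 31.45 to 31.83 with NTD, with Krt19 called in both. The 4 heart markers summed to 35.82 to 36.64 in controls, 36.89 to 37.25 and 38.05 to 39.06, with 1 and 3 called. The 4 macrophage markers were lower with MEHP, with a mean level of 4.479 to 4.557 in controls, 4.300 to 4.411 without NTD and 4.237 to 4.311 with NTD, and with Csf1r called lower with NTD. Of 5 trophoblast markers 1, Prl7b1, was called lower without NTD, and their sums overlapped (19.54 to 20.44 in controls, 19.40 to 19.73 without NTD and 19.55 to 19.87 with NTD). The part of these markers in the Lrp2 difference was not tested. Visceral endoderm markers overlapped between the groups with 0 of 14 called, and without the 2 embryo arrays highest in them Lrp2 stood at 1.15 without NTD (adjusted p = 0.0151) and 1.05 with NTD (adjusted p = 0.00908).

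In the yolk sac, where Lrp2 is far higher, MEHP arrays without NTD had the highest level of the 8 groups but the difference did not pass the threshold. Lrp2 lay at 9.79, 9.45 and 9.57 in controls without NTD and at 9.92 in the control with NTD. It lay at 10.24, 10.18 and 10.08 with MEHP without NTD and at 9.90, 9.79 and 9.64 with MEHP and NTD. The MEHP arrays without NTD stood above all other yolk sac arrays, and those with NTD overlapped the controls.

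The difference of MEHP from control without NTD was 0.57 ± 0.10 (SE, 3 arrays a group; interval 0.35 to 0.78; limma adjusted p = 0.051), with 0 of 6 members and 0.313% of all genes past the threshold. In the fit of all probe sets, with its own adjustment, the same Lrp2 values passed (adjusted p = 0.0379), the 1 probe set of 15 that rose against 0.701% of all probe sets. The second Lrp2 probe set stood at 0.45 ± 0.10 (adjusted p = 0.0585) and the third, 1445901_PM_at, at -0.09 ± 0.14 (adjusted p = 0.778). MEHP with NTD differed from MEHP without NTD by -0.39 ± 0.10 (interval -0.61 to -0.17; adjusted p = 0.236), where 0 members and 0% of all genes passed with limma although 2002 genes had an unadjusted p under 0.05. Against controls, MEHP with NTD stood at 0.17 ± 0.10 (interval -0.04 to 0.39; adjusted p = 0.344), with 0 members and 2.38% of all genes past the threshold.

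Cubn and Folr1 were likewise highest in MEHP yolk sacs without NTD among the groups of 3 arrays. Cubn lay at 12.75, 12.43 and 12.61 in controls, 12.74 in the control with NTD, 12.81, 12.81 and 12.76 with MEHP without NTD and 12.51, 12.68 and 12.50 with MEHP and NTD. Folr1 lay at 11.10, 10.83 and 11.07 in controls, 11.29 in the control with NTD, 11.32, 11.18 and 11.30 with MEHP without NTD and 11.08, 11.13 and 10.86 with MEHP and NTD. In the main probe set of both genes the MEHP arrays without NTD stood above the other 2 groups of 3 without overlap. For Cubn this was narrow (12.76 against 12.75), and neither gene passed a test. The lone control with NTD lay below them for Cubn and among them for Folr1. The share of all genes with such a separation was not counted. Of 20794 genes, 3554 had an unadjusted limma p under 0.05 for MEHP without NTD and 2002 for NTD under MEHP.

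The MEHP difference without NTD was 0.20 ± 0.09 for Cubn (limma adjusted p = 0.278) and 0.27 ± 0.09 for Folr1 (adjusted p = 0.192). That of NTD under MEHP was -0.23 ± 0.09 for Cubn (adjusted p = 0.418) and -0.24 ± 0.09 for Folr1 (adjusted p = 0.439). For the second Cubn probe set, 1426990_PM_at, MEHP arrays without NTD (12.14, 12.32 and 12.23) overlapped the controls without NTD (12.21, 11.40 and 11.78). They lay above those with MEHP and NTD (11.98, 12.13 and 11.91). In the fit of all probe sets its MEHP difference without NTD was 0.44 ± 0.16 (limma adjusted p = 0.202). Its difference of NTD under MEHP was -0.23 ± 0.16 (adjusted p = 0.756). The summed visceral endoderm marker level was at 162.42 to 163.26 in controls, 164.53 in the control with NTD, 164.05 to 165.61 with MEHP without NTD and 163.20 to 163.60 with MEHP and NTD, with 0 of 14 markers called. The part of this marker level in the values of the 3 receptors was not tested.

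**Figure D2:**
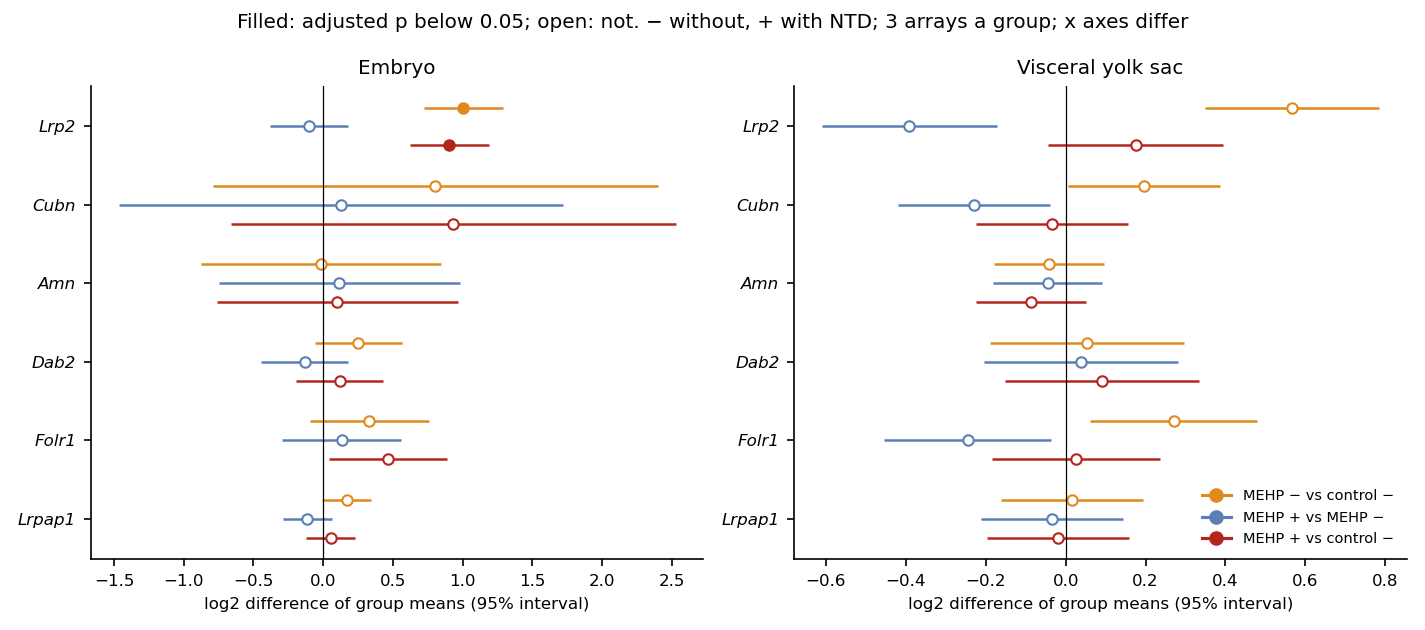
Log2 difference of group means (x axis, with 95% interval) for the 6 genes in embryo (left) and yolk sac (right); colours are the 3 comparisons, and filled points passed an adjusted p of 0.05. Lrp2 in the embryo (1.01 and 0.91) has the only filled points, and the intervals of Cubn and Amn in the embryo are the widest.

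In the embryo, Cubn and Amn were low and scattered, and neither passed a test of exposure or NTD over all arrays. Cubn was at 4.30, 6.43 and 3.67 in controls and 4.43 in the control with NTD. It was at 4.78, 4.86 and 7.17 with MEHP without NTD and at 5.36, 6.03 and 5.80 with MEHP and NTD. Control array 2 and MEHP array 3 stood apart within their groups, and all groups of 3 overlapped.

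Amn was at 4.23, 5.10 and 4.34 in controls, 4.03, 4.12 and 5.48 with MEHP without NTD and 4.12, 5.18 and 4.67 with MEHP and NTD. Its highest arrays in the first 2 groups were the same 2 as for Cubn, and the same 2 that were highest in visceral endoderm markers. Over the 10 embryo arrays the genes with the most similar profile to Cubn were Lgmn (Pearson r = 0.958), the visceral endoderm gene Afp (r = 0.957) and Plekhd1 (r = 0.948). For Amn they were Trap1a (r = 0.951), Apom and Apob (both r = 0.939), the last 2 encoding lipoprotein components made by the yolk sac endoderm.

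The MEHP difference without NTD was 0.81 ± 0.72 for Cubn (interval -0.79 to 2.40; limma adjusted p = 0.492) and -0.02 ± 0.39 for Amn (interval -0.88 to 0.85; adjusted p = 0.984). For Cubn it was 0.02 without MEHP array 3 and 1.62 without control array 2, and with the nonspecific level as a covariate it turned to -0.42 (and to -0.38 with NTD). MEHP with NTD against controls gave 0.93 ± 0.72 for Cubn (adjusted p = 0.426) and 0.10 ± 0.39 for Amn (adjusted p = 0.891). Without the 2 arrays highest in visceral endoderm markers, the Cubn difference with NTD was 1.75 ± 0.22 and passed (adjusted p = 0.0137), while that without NTD was 0.84 (adjusted p = 0.122). These 2 arrays also held the highest embryo Cubn values (6.43 and 7.17). The fit without them is therefore not independent of Cubn, and no conclusion is drawn from its call. Of the 14 visceral endoderm markers 0 were called in the embryo comparisons. The second Cubn probe set, 1426990_PM_at, gave 0.24 ± 0.46 (adjusted p = 0.758) without NTD and 0.08 ± 0.46 (adjusted p = 0.928) with NTD. Amn in the yolk sac stayed between 11.47 and 11.75, with a MEHP difference of -0.04 ± 0.06 (interval -0.18 to 0.10).

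**Figure D3:**
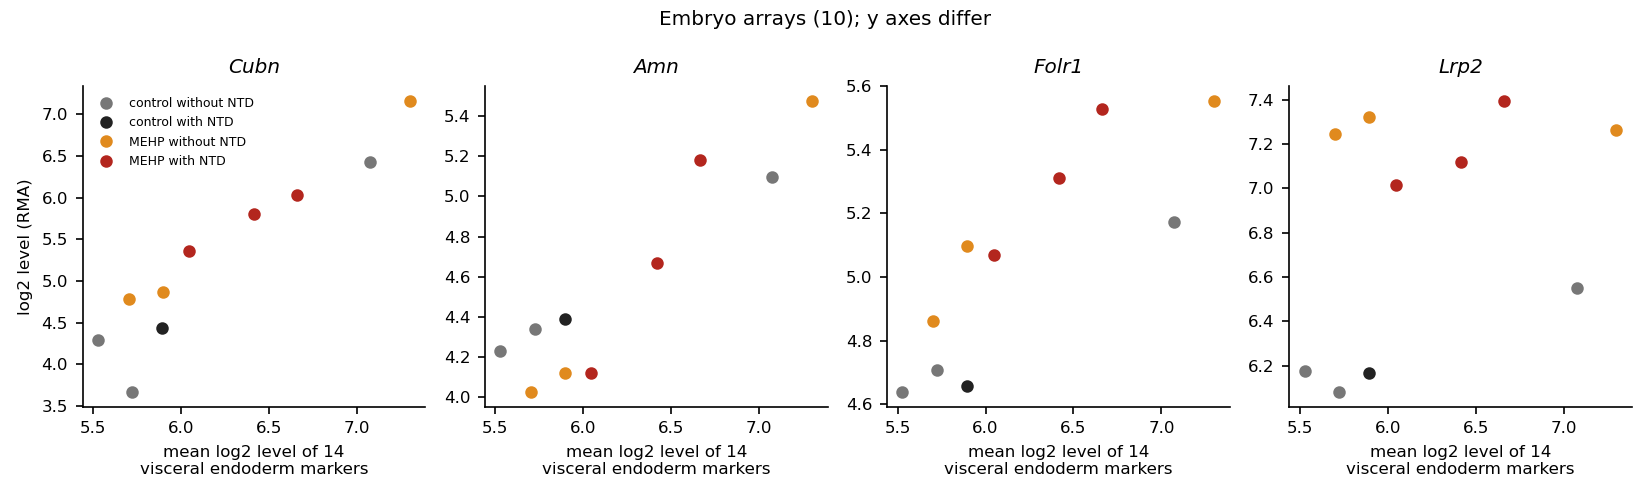
Log2 level of Cubn, Amn, Folr1 and Lrp2 (y axes, which differ) against the mean log2 level of 14 visceral endoderm markers (x axis) in the 10 embryo arrays, coloured by group. Cubn is at 6.43 and 7.17 in the 2 arrays with the highest marker level (7.07 and 7.30), whereas Lrp2 lies in 2 bands, controls at 6.08 to 6.55 and MEHP at 7.01 to 7.40, along the whole range.

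Dab2, the clathrin adaptor, gave results that depended on the probe set. Its main probe set, 1420498_PM_a_at, was at 7.97, 8.41 and 7.94 in control embryos, 8.22, 8.31 and 8.56 with MEHP without NTD and 8.05, 8.40 and 8.24 with MEHP and NTD, groups that overlap. The MEHP differences were 0.25 ± 0.14 (limma adjusted p = 0.265) without NTD and 0.12 ± 0.14 (adjusted p = 0.614) with NTD.

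The probe set 1429693_PM_at, with a lower mean level, did separate exposure in the embryo. It was at 5.05, 5.36 and 4.72 in controls and 4.98 in the control with NTD. It was at 5.84, 5.98 and 6.38 with MEHP without NTD and at 6.18, 5.997 and 5.96 with MEHP and NTD. All 6 MEHP arrays lay above all 4 control arrays.

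In the fit of all probe sets it rose by 1.02 ± 0.17 (adjusted p = 0.0087) without NTD and 1.002 ± 0.17 (adjusted p = 0.0126) with NTD, and it passed in both without each array in turn. Another Dab2 probe set, 1423805_PM_at, rose by 0.65 ± 0.17 (adjusted p = 0.0418) without NTD, a call lost without control array 1 or any 1 MEHP array (highest adjusted p = 0.127), and stood at 0.61 ± 0.17 (adjusted p = 0.0572) with NTD. The fourth, 1430604_PM_a_at, stood at -0.16 ± 0.19 (adjusted p = 0.605) without NTD. In all, 4 of the 15 probe sets rose in MEHP embryos without NTD and 2 in those with NTD, against 5.43% and 4.17% of all probe sets. With the nonspecific level as a covariate none of the genes or probe sets named for the embryo MEHP comparisons kept its call. That fit cannot tell background and exposure apart, because the level did not overlap between control and MEHP arrays.

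The fourth Dab2 probe set was, in yolk sac, at 8.50, 7.90 and 8.26 in controls and at 8.67, 9.09 and 9.0045 with MEHP and NTD, with no overlap. It rose by 0.70 ± 0.15 (limma adjusted p = 0.0405), the 1 of 15 that rose in that comparison against 1.94% of all probe sets. Leaving out any 1 of control arrays 2 and 3 and MEHP arrays 2 and 3 with NTD ended the call (highest adjusted p = 0.116), as did the nonspecific level as a covariate (0.28, adjusted p = 0.669). The main Dab2 probe set gave 0.09 ± 0.11 (interval -0.15 to 0.33) there and 0.05 ± 0.11 (interval -0.19 to 0.30) without NTD. In yolk sac without NTD the fourth probe set stood at 0.52 ± 0.15 (adjusted p = 0.121). The probe set 1429693_PM_at stood at 0.78 ± 0.22 (adjusted p = 0.112) without NTD and 0.58 ± 0.22 (adjusted p = 0.169) with NTD. For 1423805_PM_at the yolk sac differences were 0.07 ± 0.08 (adjusted p = 0.694) and -0.04 ± 0.08 (adjusted p = 0.845). Which transcripts each Dab2 probe set matches was not analysed here.

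**Figure D4:**
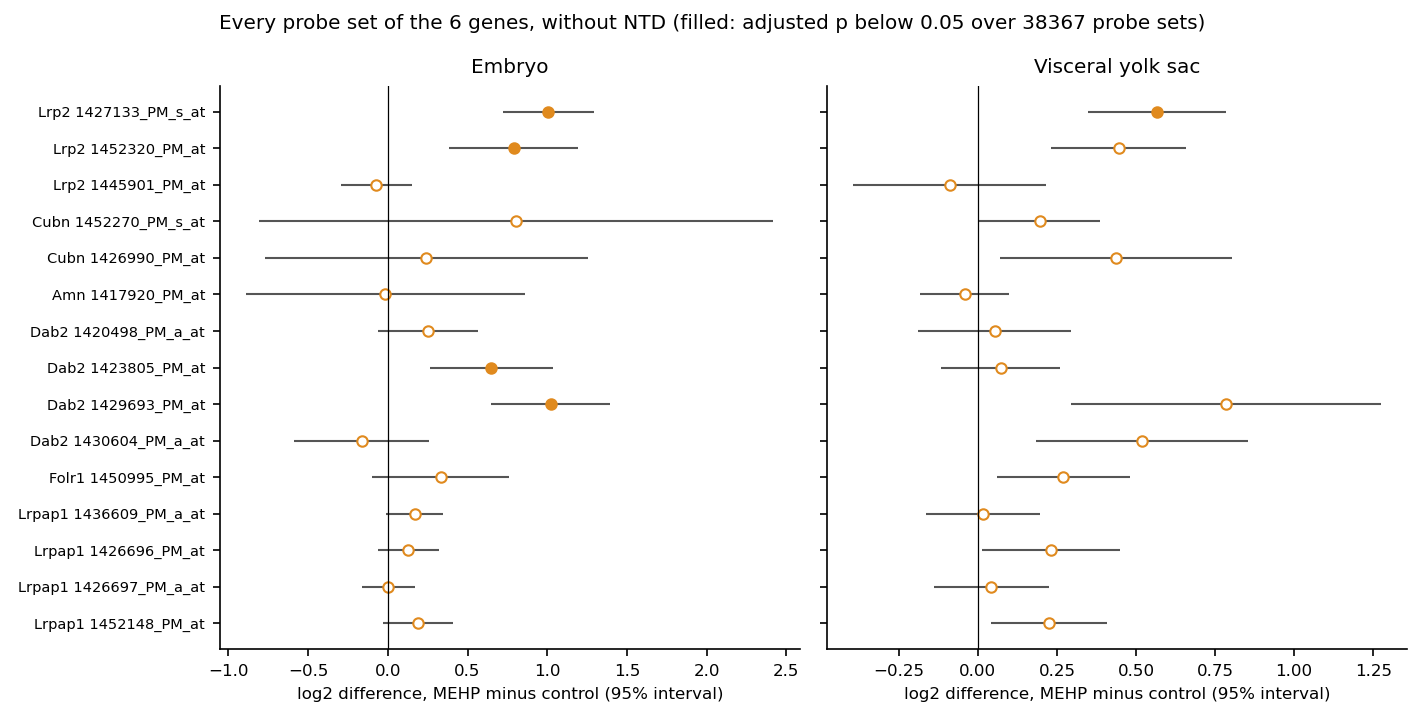
Log2 difference of MEHP from control without NTD (x axis, with 95% interval) for each of the 15 probe sets in embryo (left) and yolk sac (right); filled points passed an adjusted p of 0.05 over all probe sets. In the embryo 2 Lrp2 and 2 Dab2 probe sets are filled, and in the yolk sac 1 Lrp2 probe set.

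Lrpap1, the chaperone of megalin, had narrow spreads and no called change. Its main probe set was at 8.91, 9.11 and 9.17 in control embryos, 9.205, 9.19 and 9.30 with MEHP without NTD and 9.07, 9.14 and 9.14 with MEHP and NTD. The MEHP arrays without NTD lay above the controls and those with NTD overlapped them. The difference without NTD was 0.17 ± 0.08 (interval -0.01 to 0.34; limma adjusted p = 0.188), and with NTD 0.05 ± 0.08 (interval -0.12 to 0.23; adjusted p = 0.695). In the yolk sac all values of this main probe set lay between 11.86 and 12.14, with a MEHP difference without NTD of 0.02 ± 0.08 (interval -0.16 to 0.19). In the fit of all probe sets that difference was 0.23 ± 0.10 for 1426696_PM_at (limma adjusted p = 0.25). It was 0.04 ± 0.08 for 1426697_PM_a_at (adjusted p = 0.832) and 0.22 ± 0.08 for 1452148_PM_at (adjusted p = 0.193). No Lrpap1 probe set passed in a comparison of MEHP with control in either tissue.

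Folr1, the folate receptor, was low in the embryo, at 4.64, 5.17 and 4.71 in controls, 4.86, 5.10 and 5.56 with MEHP without NTD and 5.07, 5.53 and 5.31 with MEHP and NTD. The groups overlapped. The MEHP difference was 0.33 ± 0.19 (interval -0.09 to 0.76; limma adjusted p = 0.28) without NTD and 0.46 ± 0.19 (interval 0.04 to 0.89; adjusted p = 0.149) with NTD. Its only probe set, 1450995_PM_at, carried no call outside the comparison of tissues. Over the 6 members the median difference in MEHP embryos without NTD was 0.29, against -0.045 over all genes, and it was also 0.29 with NTD, against -0.046.

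The effect of MEHP was set against itself in the 2 tissues. For Lrp2 the effect without NTD was larger in embryo by 0.44 ± 0.17 (interval 0.08 to 0.80), with limma adjusted p = 0.289, and for Cubn by 0.61 ± 0.82 (adjusted p = 0.797). None of the 6 genes passed, and 0.0769% of all genes did. For the effect of NTD under MEHP, Lrp2 differed between tissues by 0.29 ± 0.17 (adjusted p = 0.742) and Folr1 by 0.38 ± 0.23 (adjusted p = 0.758), with 0 members and 0.0144% of all genes past the threshold. A tissue difference in the response of these receptors was not detectable with 3 arrays a group.

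The authors' deposited tables pool NTD status when they compare exposure. In the authors' deposited table for embryo, Lrp2 had a log2 difference of 0.98 (ratio 1.98, false discovery rate 0.000182) and the Dab2 probe set 1429693_PM_at 1.03 (ratio 2.04, false discovery rate 0.000441). The same authors' deposited table gives Folr1 0.44 with a false discovery rate of 0.0522 and Cubn 0.96 with 0.219. In the authors' deposited table for yolk sac, Lrp2 has 0.29 (false discovery rate 0.198). That comparison averages arrays with and without NTD, both for MEHP and for controls.

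Other genes of the uptake pathway were followed through 6 lists. Their counts of called genes in MEHP embryos without NTD are set beside the share over all genes (9.72%, with 3.82% higher). The lists are short, and no count is read as a result about its list. In MEHP embryos without NTD, 1 of 14 other LDL receptor family genes rose and 1 fell, the rising one being Lrp4 (0.34 ± 0.09, limma adjusted p = 0.0378), a receptor known from nerve-muscle synapses and limb development, and the falling one Ldlrad4 (-0.64 ± 0.07, adjusted p = 0.00335), an inhibitor of TGF-beta signalling. The reelin receptor Vldlr stood at 0.43 ± 0.20 and did not pass. Of 21 adaptors and tail partners 2 rose and 1 fell. The risers were the clathrin coat initiator Fcho2 (0.54 ± 0.11) and the phosphoinositide phosphatase Ocrl (0.41 ± 0.11), and the adaptor subunit Ap2a1 fell (-0.47 ± 0.10). Of 19 ligands 1 rose, clusterin (Clu, 0.59 ± 0.09, adjusted p = 0.0093), a lipoprotein known to bind megalin. The median change was 0.07 for the LDL receptor family, -0.02 for the adaptors and 0.02 for the ligands, against -0.045 over all genes.

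Few folate and cobalamin genes passed in the same embryos. Of 20 measured genes of folate uptake and use (of 21 listed), 0 rose and 2 fell, Aldh1l2 (-0.90 ± 0.23) and Ftcd (-0.33 ± 0.07), both of which use tetrahydrofolate forms, a share near the 9.72% of all genes. Of 9 cobalamin genes 0 passed, and of 11 regulators known to act on these receptors, such as Ppara, Hnf4a and Sp1, 0 passed. Their median changes were -0.02, -0.05 and -0.12. In MEHP embryos with NTD against controls, Clu (0.60 ± 0.09), Ldlrad4 (-0.53 ± 0.07), Ap2a1 (-0.44 ± 0.10) and Lpl (-0.36 ± 0.09) were the list genes that passed, where 7.45% of all genes did.

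Clu and Ldlrad4 passed in 6 of 6 fits that left out 1 array, in both comparisons. Aldh1l2, Lrp4 and Lpl passed in 0 of 6, and Fcho2, Ftcd, Ocrl and Ap2a1 in 1 or 2, these being fits without control array 2 or 3. For NTD under MEHP 0 genes of the 6 lists passed in either tissue.

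In the yolk sac the sorting nexin Snx17, which binds the tails of LDL receptor family members and returns them from endosomes to the surface, was the 1 list gene that fell with MEHP without NTD (-0.39 ± 0.05, limma adjusted p = 0.028; 0.313% of all genes passed). With NTD it fell by 0.52 on the log2 scale (SE 0.05, adjusted p = 0.00577), and this call held without each array, whereas the call without NTD was lost without any 1 of the 6 (highest adjusted p = 0.114). The cobalamin carrier Tcn2 (-0.42 ± 0.07) and the folate enzyme Mthfd1 (-0.29 ± 0.06) also fell with MEHP and NTD. Tcn2 passed in 1 of 6 fits that left out 1 array, the one without MEHP array 2, and Mthfd1 in 0. In this comparison 2.38% of all genes passed. With the nonspecific level as a covariate none of these yolk sac calls held, Snx17 standing at -0.39 (adjusted p = 0.365) without NTD and -0.52 (adjusted p = 0.249) with NTD. Here too the fit cannot tell background and exposure apart.

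**Figure D5:**
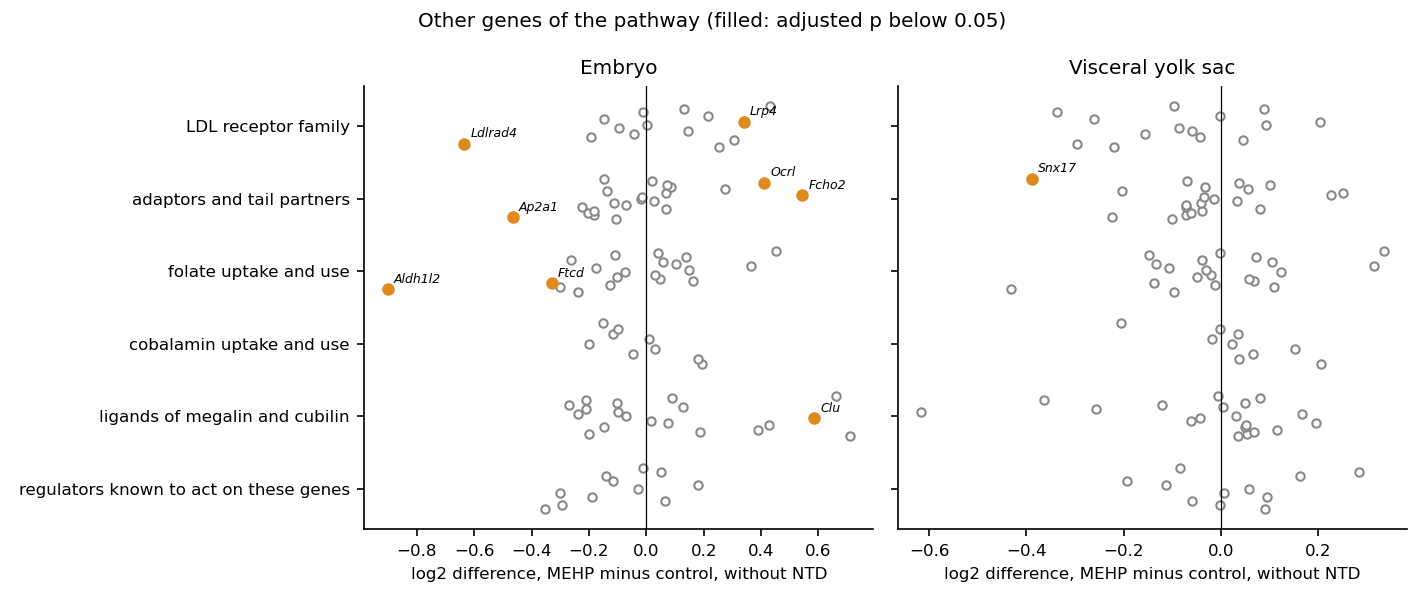
Log2 difference of MEHP from control without NTD (x axis) for the genes of the 6 pathway lists (y axis) in embryo (left) and yolk sac (right); a point is 1 gene, and filled, named points passed an adjusted p of 0.05. In the embryo 8 genes are filled, from Aldh1l2 (-0.90) to Clu (0.59), and in the yolk sac only Snx17 (-0.39).

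Between control tissues 22.8% of all genes were lower in embryo and 28.4% higher, and the list counts are read against these shares. Of the 19 ligands 15 were lower in embryo and 4 higher, among them Apob (-7.76 ± 0.86), Apom (-7.76 ± 0.57) and Apoa1 (-7.03 ± 0.68), components of lipoproteins that megalin or cubilin bind. Apob was at 4.005, 7.483 and 4.10 in the control embryos, of which 2 lie at about the nonspecific level, so its size is not exact, and 6 of the 19 ligands are also among the 14 visceral endoderm markers. Of the adaptors 15 of 21 were lower, with Myo6, the motor that drives endocytic vesicles inwards, at -4.22 ± 0.11 and the clathrin light chain Cltb at -2.07 ± 0.11. Of the regulators 5 of 11 were lower and 2 higher, with the endoderm factor Hnf4a, also one of the visceral endoderm markers, at -4.74 ± 0.14. Of the folate genes 11 of 20 were lower, among them the reduced folate carrier Slc19a1 (-0.74 ± 0.08), and of the cobalamin genes 4 of 9, with Tcn2 at -2.33 ± 0.10. In the LDL receptor family 7 of 14 were higher in embryo and 3 lower, with Vldlr at 1.92 ± 0.31 and Lrp10 at -1.46 ± 0.09.

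Within each tissue the order of the group levels was mostly not resolved. In the embryo the order for Lrp2 ran from MEHP without NTD (mean 7.28) through MEHP with NTD (7.18) and control without NTD (6.27) to control with NTD (6.17), and of these neighbours MEHP with NTD and control without NTD had no overlap. For Cubn, Dab2, Folr1 and Amn all neighbouring embryo groups overlapped, with MEHP highest and the lone control with NTD lowest (4.43, 8.11, 4.66 and 4.39). For Lrpap1 the lone control with NTD (9.16) lay just under MEHP without NTD and just over MEHP with NTD. In the yolk sac MEHP without NTD was the highest group of 3 arrays for Lrp2 (10.17), Cubn (12.79), Folr1 (11.27) and Lrpap1 (12.03). For Lrpap1 all neighbouring groups overlapped, and its probe set 1426697_PM_a_at was highest with MEHP and NTD (9.56, against 9.52 without NTD). Dab2 was highest with MEHP and NTD (12.18), over MEHP without NTD (12.15) and controls (12.09), and these groups overlapped. Amn ran the other way among groups of 3, from 11.66 in controls to 11.62 and 11.57 with MEHP without and with NTD. Neighbours in that order overlapped, while controls (11.65 to 11.67) and MEHP with NTD (11.47 to 11.64) did not. The Amn difference of MEHP with NTD from controls was -0.09 ± 0.06 (limma adjusted p = 0.456) and did not pass. The share of all genes with such a separation was not counted.

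The genes with the profile most like a member's were found within each tissue, among 10397 genes of larger spread, as a description over 10 arrays that share exposure groups. Embryo Lrp2 was most like Bicra (Pearson r = 0.988), Fat4 (r = 0.98) and Atxn2 (r = 0.977), and yolk sac Lrp2 was most like Galm (r = 0.943), Asl (r = 0.933) and the peroxisomal fatty acid oxidation gene Ehhadh (r = 0.929). Embryo Dab2 was most like Eif4a2 (r = 0.958), embryo Folr1 most like A430106A12Rik (r = 0.962) and embryo Lrpap1 most like Vopp1 (r = 0.96). In the yolk sac the closest genes were D10Ertd638e for Cubn (r = 0.92), Lingo2 for Amn (r = 0.923), Cldn6 for Dab2 (r = 0.943), Neat1 for Folr1 (r = 0.906) and Myo7b for Lrpap1 (r = 0.916). The lists of 3 for a gene in embryo and in yolk sac had no gene in common for any of the 6 members.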

How the data were processed

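Gene expression was measured on 20 Affymetrix arrays. The deposited expression table holds log2 values made by the authors with RMA, per the submitters' processing notes, which also name R 2.15.1 and limma. The authors' deposited comparison tables hold a log2 difference of class means, the same difference as a ratio, and p-values with false discovery rates. RMA was not repeated, and its between-array normalization sets array distributions nearly equal. Array groups were read from these tables: among 1022 possible splits of a tissue's 10 arrays, the one used had a largest error of 3.9e-15 to 7.3e-15, against 0.873 to 0.971 for the next best. Headings in another deposited value table put 13 of 20 arrays elsewhere, and grouping by them was run as an alternative.

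From 45141 probe sets, 6670 that lack a symbol and 104 controls were removed. Symbols of 35403 probe sets were updated by Entrez identifier, and 2964 were kept as deposited. Each gene was represented by its probe set of highest mean. Using limma 3.58.1 in R 4.3.3 (tables read with the data.table package, version 1.17.8), a mean per group was fitted, over 10 arrays within a tissue and over 20 between tissues, which treats the tissues as independent. Benjamini-Hochberg adjustment ran over all 20794 genes (or 38367 probe sets), with a threshold of 0.05. Standard errors had a median of 0.089 (embryo) and 0.08 (yolk sac). The procedure was tested on simulated data. Figures were drawn with matplotlib 3.10.9 in Python 3.11.15 (pandas 2.3.3, numpy 2.4.6).

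Named genes are the members, list genes past the threshold (up to 6 a list and comparison) and, per member and tissue, the 3 genes with the highest Pearson correlation. Vldlr, Ppara and Sp1 were named after their values were seen. The members and all lists were chosen with earlier results of these data known. Some genes of the lists are not reported here, and list counts and medians leave them out.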

Additional observations from a re-analysis of the deposited data

Results flagged for a closer look

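The lone control yolk sac array with NTD enters no comparison fitted for the report, though the authors' pooled comparison for yolk sac includes it. It stood above all 3 control yolk sacs without NTD for 3 of the 6 genes. Lrp2 was at 9.92 there, Amn at 11.75 and Folr1 at 11.29. With 1 array these values have no replicate check. The share of all genes for which this array stood above the 3 controls was not counted, so the count of members has nothing to be read against. No member's exposure or NTD effect differed between the tissues in a test, and no group has the 4 arrays needed to test for an outlying array.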

How the results depend on the processing

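Lrp2 in MEHP embryos without NTD ranged from 0.91 to 1.15 when each array was left out in turn (highest adjusted p 0.0304), and with NTD from 0.80 to 1.05 (0.0335). In the yolk sac it ranged from 0.49 to 0.66 and passed in 0 of 6 such fits. Leaving out 1 array changed the number of members called in none of the 9 comparisons. With the nonspecific probe set level as a covariate, 0 members were called in either embryo MEHP comparison with controls, and Cubn turned to -0.42 without NTD and -0.38 with NTD. Such a fit cannot tell background and exposure apart. For MEHP in yolk sac without NTD, 1 member (Lrp2) was called with all 20 arrays in 1 fit (adjusted p 0.0416), with trend and robust variances (0.0216) and with every probe set tested (0.0379). Without the 2 embryo arrays highest in visceral endoderm markers, 2 members (Lrp2 and Cubn) were called in MEHP embryos with NTD against controls. Those 2 arrays were also the highest in Cubn, so the Cubn call is tied to the choice of arrays. With groups from the sample headings, which mix tissues, 6 members were called in MEHP embryos without NTD, in NTD under MEHP in yolk sac and in both differences between tissues, 0 in MEHP embryos with NTD and 1 (Lrp2) between control tissues. Under those headings Lrp2 in yolk sac turned to -2.05 for MEHP and 2.6 for NTD, Lrp4 to -0.65, Ftcd to 0.59 and Tcn2 to 0.47. Those headings put 8 of the 20 arrays in the other tissue than the grouping used here, in which the tissue markers parted all embryos from all yolk sacs. The cause of these shifts was not tested further.

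Counts over all genes moved with the setting (the headings left aside). They were 2021 (0 to 4053) and 1549 (0 to 3074) for MEHP embryos without and with NTD against controls, and 65 (0 to 389) and 494 (1 to 1218) for yolk sacs. They were 5 (0 to 20) and 0 (0 to 30) for NTD under MEHP in embryo and yolk sac, 10657 (7939 to 17955) between control tissues, and 16 (3 to 259) and 3 (0 to 9) for the differences between tissues. The highest counts of the MEHP comparisons are over probe sets, and their lowest used the nonspecific covariate. No paired analysis was possible because the array columns carry no replicate number. The number of arrays, and for Cubn and Amn their low and scattered embryo levels, limit the calls.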
